A study of Mus musculus with 36 samples.

Results

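Unstimulated bone marrow-derived macrophages that carried the D310N form of Tnip2 were compared with wild-type (WT) macrophages by RNA sequencing. The comparison rests on 6 of the 36 libraries of the series, 3 D310N and 3 WT libraries from cells that had received no lipopolysaccharide (LPS). The genes compared were the 11656 of 16416 in the table whose log2 normalised value reached 3.32, a linear value of 10, in at least 3 of the 36 libraries. Mouse bone marrow had been kept in non-adherent dishes over 7 days to yield the macrophages. The RPMI contained fetal calf serum at 10% and, also at 10%, supernatant of L929 cells, a fibroblast line whose medium supplies the growth factor M-CSF. The remaining 30 libraries came from the same 2 genotypes given 100 ng/ml LPS for 30, 60, 120, 240 or 360 min, with 3 libraries in each group. The labels give neither the strain, age or sex of the mice nor whether replicates came from separate animals. The p-values therefore measure only the spread between samples, which may be technical. That spread was estimated for each gene within the groups of all 36 libraries, including those given LPS.

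Tnip2 encodes ABIN-2, an adaptor that binds ubiquitin chains and holds the kinase Tpl2 and the NF-kB precursor p105 in a complex. Through Tpl2 this complex feeds the ERK branch of Toll-like receptor signalling, and LPS, the ligand of Toll-like receptor 4, is its usual trigger in macrophages. Macrophages grown in M-CSF divide, and without a microbial stimulus they also keep a low level of interferon-stimulated genes running. The comparison at 0 min asks how the genotypes differed before any LPS was given.

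The titles of the samples call the mutation D310N, whereas the header of the table writes D309N, and the name in the titles is used here. Counting from the start codon of the 430-codon transcript Tnip2-202 of the GENCODE M21 annotation (GRCm38), codon 310 and the codon before it both encode aspartate. In the 451-codon Tnip2-201 and the 347-codon Tnip2-203 neither of these positions does. They are shown in capitals because both names fit an aspartate of this transcript, in the stretch from codon 301 to codon 318.
Tnip2-202, codons 301 to 318: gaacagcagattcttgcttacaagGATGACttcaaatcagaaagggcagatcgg

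Tnip2 RNA (chromosome 5, 34496087 to 34513991, GRCm38) read 8.76, 8.85 and 8.84 in the WT libraries and 8.89, 8.88 and 8.85 in the D310N libraries on the log2 scale. The groups overlapped and the difference, 0.05 ± 0.06 (SE), did not pass (adjusted p = 0.696). Because the change is in a single codon, this level cannot check the genotype labels. Differences below are D310N minus WT in log2 units with their SE, n = 3 libraries a group, from limma. The SE uses the spread within groups over all 36 libraries, so it can differ from the spread of the 6 libraries compared. A gene was called at a Benjamini-Hochberg adjusted p under 0.05.

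Across the genome 1250 genes were called, 424 higher and 826 lower in D310N, which is 10.7% of those tested, 3.64% in the higher and 7.09% in the lower direction. Most differences were small. Their median size among called genes was 0.35, 427 exceeded 0.5 and 46 exceeded 1, of which 14 were higher and 32 lower. The median difference over all tested genes was -0.008. The count depended on single libraries, with 716 genes called without D310N replicate 1, 753 without D310N replicate 3 and 1331 without D310N replicate 2. It also depended on libraries outside the comparison, through the shared spread. The count was 1807 without WT replicate 1 of 360 min and 1896 with the 6 libraries of 0 min alone. The libraries of the genotypes did not overlap for 1234 of the called genes, against 32.7% of all tested genes.

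**Figure D1:**
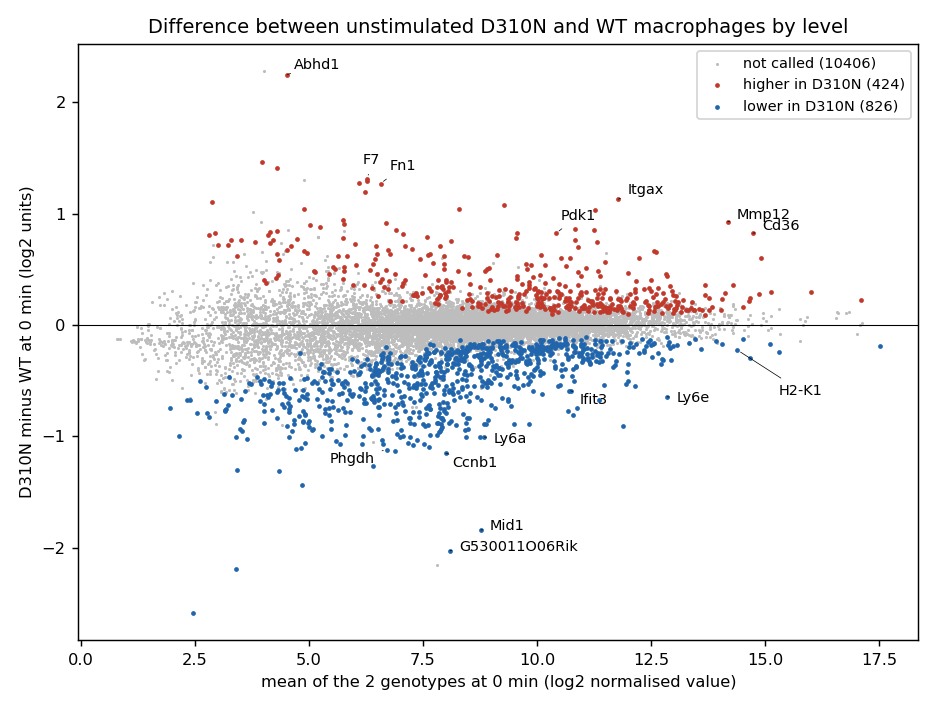
Difference between D310N and WT (vertical axis, log2 units) against the mean of both genotypes (horizontal axis, log2 normalised value) for the 11656 tested genes at 0 min, with called genes in red (424 higher) and blue (826 lower). Abhd1 stands highest among the genes called, Mid1 and G530011O06Rik stand far below the other called genes of their level, and the blue points are densest between differences of 0 and -1.

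The main principal component of the 6 libraries held 56.3% of the variance and separated the genotypes, with the WT libraries at -11.2, -11.7 and -12.1. The D310N libraries lay at 14.8, 6.79 and 13.3, so D310N replicate 2 stood nearest to WT. The same library was the D310N library nearest to the WT mean for 333 of the 424 genes called higher (78.5%) and for 439 of the 826 called lower (53.1%). The order of the replicates differed between gene groups, as described with each group.

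Mitotic genes were the group with the most members called. Of 56 tested genes of G2/M and mitosis, which build the spindle, condense the chromosomes and drive entry into and exit from mitosis, 55 fell, beside 7.09% of all tested genes, with a median difference of -0.81. Between 53 and 55 fell when any library of 0 min was left out. Ccnb1, the cyclin that activates Cdk1 at mitotic entry, read 8.50, 8.63 and 8.59 in WT and 7.39, 7.37 and 7.51 in D310N, a difference of -1.15 ± 0.09 (adjusted p = 1.7e-10) or 0.45 times the WT level. Kif18b, a kinesin that shortens astral microtubules, read 7.03, 6.99 and 7.08 against 5.75, 5.91 and 5.66, a difference of -1.26 ± 0.12 (adjusted p = 1e-08). Cdc20, the activator of the anaphase-promoting complex, read 7.65, 7.58 and 7.47 in WT and 6.67, 6.49 and 6.54 in D310N (-0.998 ± 0.11, adjusted p = 2.9e-07). In each of these genes every D310N library lay below every WT library by more than the spread within either genotype.

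Other members fell by similar amounts. The kinesins Kif20a and Kif23, which build the central spindle at cytokinesis, gave -0.94 ± 0.11 and -1.01 ± 0.13, and the kinesins Kif14, Kif2c and Kif4 gave -1.07 ± 0.13, -1.06 ± 0.16 and -0.88 ± 0.10. Cyclin B2 (Ccnb2), the spindle pole protein Aspm, the kinetochore component Ndc80 and the mitotic spindle protein Ckap2l gave -1.09, -1.03, -0.85 and -0.88. Prr11 and Depdc1a, both mitotic genes named by their size of change, gave -1.08 ± 0.12 and -1.04 ± 0.15. Pttg1, securin, the inhibitor of separase, was the exception, reading 8.26, 8.12 and 8.30 in WT and 8.10, 8.11 and 8.02 in D310N, a difference of -0.15 ± 0.08 that did not pass (adjusted p = 0.24).

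Genes of the G1/S transition and DNA replication differed less. Of 38 tested, 20 fell, beside 7.09% of all tested genes, with a median difference of -0.32, and the others did not pass. Without D310N replicate 1 the count was 13. E2f2 and E2f8, transcription factors of the E2F family, gave -0.75 ± 0.11 and -0.64 ± 0.08, with E2f8 at 8.77, 8.81 and 8.73 in WT and 8.10, 8.06 and 8.23 in D310N. Rrm2, the regulated subunit of ribonucleotide reductase, gave -0.73 ± 0.10, the checkpoint adaptor Clspn -0.61 ± 0.10 and Uhrf1, which brings the maintenance DNA methyltransferase to new DNA, -0.43 ± 0.07. The replication clamp Pcna was level, at 12.95, 13.04 and 13.01 in WT and 13.17, 12.97 and 13.12 in D310N, and the replicative helicase subunit Mcm6 gave -0.18 ± 0.07 (adjusted p = 0.095).

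Among 20 tested D-type cyclins, kinase inhibitors and Rb family genes, 7 fell, beside 7.09% of all tested genes, and the others did not pass. The CDK4/6 inhibitors Cdkn2c and Cdkn2d gave -0.79 ± 0.08 and -0.64 ± 0.09, Mxd3, a partner of Max expressed in cycling cells, -0.91 ± 0.16 and the kinase Cdk2 -0.32 ± 0.07. The cyclin Ccnd1, the target of growth factor signals, read 12.99, 12.96 and 12.94 in WT and 13.34, 13.17 and 13.24 in D310N. The libraries of Ccnd1 did not overlap, but its difference of 0.28 ± 0.10 did not pass (adjusted p = 0.08). The p21 gene Cdkn1a gave 0.11 ± 0.09 (adjusted p = 0.55). In bulk RNA, fewer cells in a phase of the cycle and less RNA per cell cannot be told apart.

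Markers of blood progenitors were split. Of 9 such markers 5 were tested, with a median difference of -0.13, and 2 fell, beside 7.09% of all tested genes. They were the stem cell factor receptor Kit (5.31, 5.40 and 5.62 in WT, 4.27, 4.76 and 4.13 in D310N) and Ly6a, the Sca-1 antigen, which is also induced by interferon. The other 3 tested markers did not pass, and 2 of these lay above 0, at up to 0.33. The summed linear level ranged from 668 to 812 in WT and from 373 to 439 in D310N, with Ly6a the highest member, and 4 of the 9 lay below a linear value of 10 in all 6 libraries. Their part in the mitotic result was not tested.

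**Figure D2:**
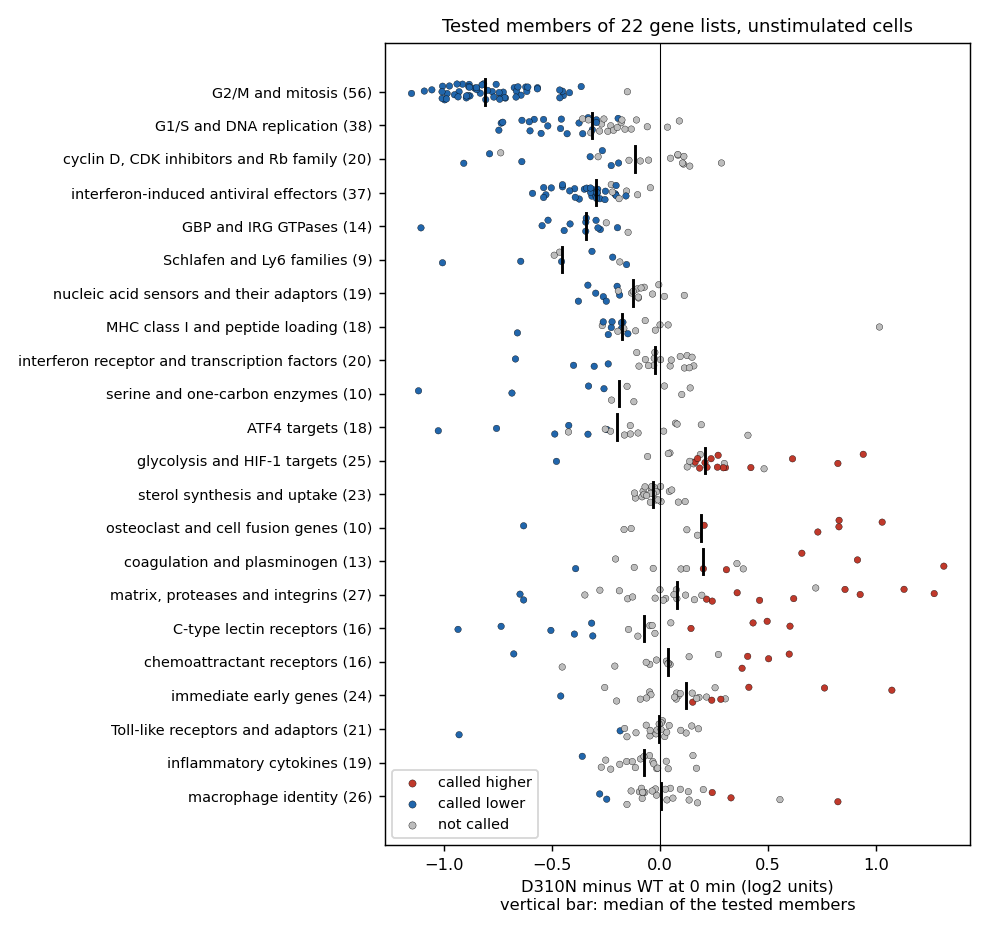
Difference between D310N and WT at 0 min (horizontal axis, log2 units) for each tested member of 22 gene lists, with the number of members in brackets and the median as a bar. The G2/M points lie almost wholly left of 0 (median -0.81), the antiviral, GBP and IRG genes less far left (medians -0.30 and -0.34), the glycolysis and HIF-1 genes mostly right of 0 (median 0.21), and the matrix genes and C-type lectins on both sides.

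Interferon-stimulated genes formed the other large group that fell. All 37 tested antiviral effectors had a difference below 0, 31 of them fell, beside 7.09% of all tested genes, and the median was -0.30. Leaving out a library of 0 min left between 23 and 30. Ifit3, a protein that binds viral RNA in a complex with its relatives, read 11.14, 11.10 and 10.86 in WT and 10.56, 10.38 and 10.39 in D310N (-0.59 ± 0.07, adjusted p = 1.4e-06). Its relative Ifit2 gave -0.53 ± 0.07, the oligoadenylate synthetase family members Oas3 and Oasl2 gave -0.54 ± 0.09 and -0.42 ± 0.06, the exonuclease Isg20 gave -0.54 ± 0.09 and the ubiquitin-like Isg15 gave -0.37 ± 0.06. Ifitm3, which blocks viral entry, read 13.25, 13.14 and 13.12 against 13.13, 13.06 and 13.01. Its groups overlapped and it did not pass (-0.10 ± 0.05, adjusted p = 0.15).

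In this group WT replicate 3 was the lowest of the WT libraries and D310N replicate 1 the highest of the D310N libraries. The median over the 37 genes, taken against each gene's WT mean, was 0.05, 0.04 and -0.08 in the WT libraries and -0.23, -0.33 and -0.36 in the D310N libraries. D310N replicate 1 was nearest to WT for 27 of the 31 genes called, whereas in the mitotic list D310N replicate 3 was nearest for 43 of 55.

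**Figure D3:**
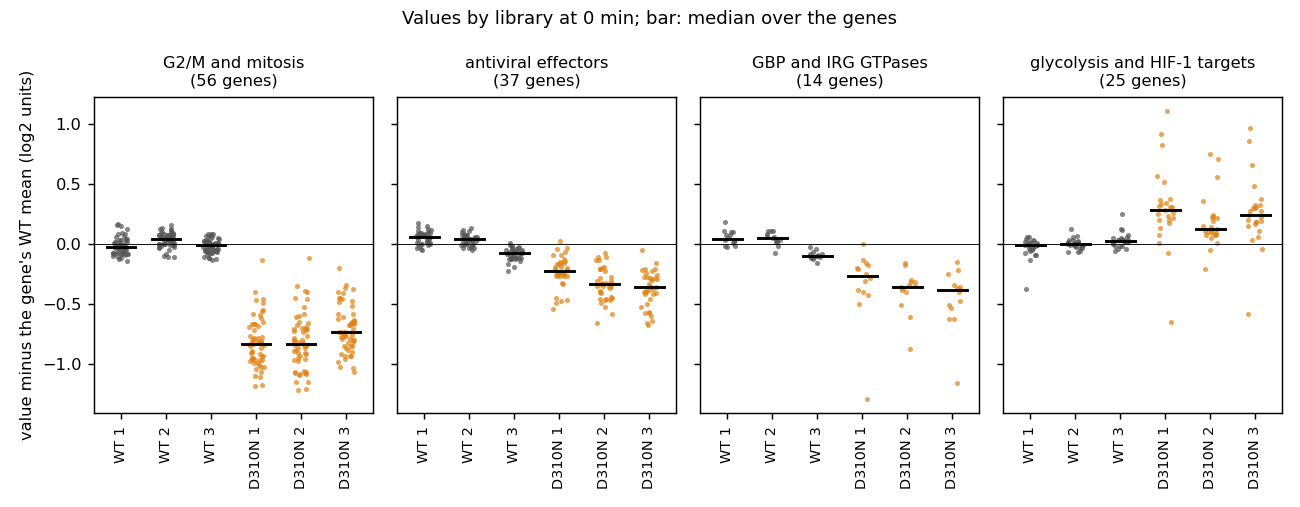
Value minus the gene's WT mean (log2 units) for every tested member of 4 gene lists in the 3 WT (grey) and 3 D310N (orange) libraries of 0 min, with the median as a bar. The D310N medians were -0.83, -0.83 and -0.74 for G2/M genes, while for glycolysis and HIF-1 genes D310N replicate 2, at 0.12, lay between WT and the other D310N libraries at 0.29 and 0.24.

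GTPases that attack the vacuoles of intracellular microbes, the guanylate-binding proteins and immunity-related GTPases, fell in 12 of 14 cases with a median of -0.34, beside 7.09% of all tested genes. Gbp8 read 5.36, 5.44 and 5.33 in WT and 4.09, 4.50 and 4.22 in D310N (-1.11 ± 0.15, adjusted p = 3.7e-06). Tgtp2 gave -0.55 ± 0.07 and Irgm1, a regulator of the family, gave -0.34 ± 0.06, while Gbp5 gave -0.15 ± 0.05 (adjusted p = 0.08). Near-identical members of this family can share reads, so single members are uncertain.

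The Ly6 and Schlafen families fell in 6 of 9 tested members, beside 7.09% of all tested genes. Ly6a read 9.48, 9.46 and 9.12 in WT and 8.39, 8.44 and 8.21 in D310N (-1.01 ± 0.16, adjusted p = 4.6e-05), and Ly6e, a membrane protein that affects viral entry, read 13.36, 13.17 and 13.02 against 12.58, 12.56 and 12.48 (-0.65 ± 0.08, adjusted p = 1.2e-06). Slfn9 gave -0.46 ± 0.08. Among 19 sensors of foreign nucleic acid and their adaptors 7 fell, beside 7.09% of all tested genes. They included Ddx58, which encodes RIG-I (-0.38 ± 0.06), Dhx58, which encodes LGP2 (-0.30 ± 0.05), and the DNA sensor family member Ifi203 (-0.33 ± 0.05).

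The genes that transmit interferon signals moved less as a group. Of 20 tested, 4 fell, beside 7.09% of all tested genes, and the others did not pass. Members called higher numbered 3 and 2 without WT replicates 1 and 2 of 360 min, and 4 in the 6 libraries of 0 min alone. Irf7, which amplifies type I interferon production, read 11.88, 11.76 and 11.47 in WT and 11.14, 11.12 and 10.84 in D310N (-0.67 ± 0.11, adjusted p = 8.1e-05). The signal transducer Stat2 gave -0.31 ± 0.06 and Usp18, which removes Isg15 and dampens the receptor, gave -0.40 ± 0.06. The receptor kinase Jak1 gave 0.05 ± 0.04, Irf5 gave 0.15 ± 0.06 and Irf8 gave 0.16 ± 0.09 (adjusted p = 0.6, 0.089 and 0.3).

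Antigen presentation genes on the class I side fell in 9 of 18 cases, beside 7.09% of all tested genes, with a median of -0.18, and in 5 without WT replicate 1. The other 9 did not pass. Differences in this list ran from -0.66 to 1.02, and 2 members lay above 0. The class I heavy chain H2-K1 read 14.58, 14.51 and 14.43 in WT and 14.24, 14.38 and 14.23 in D310N, a narrow gap of -0.23 ± 0.05 (adjusted p = 0.0027). The peptide transporter Tap1 gave -0.26 ± 0.04 (adjusted p = 5.2e-05). The light chain B2m gave -0.17 ± 0.05 (adjusted p = 0.01), which did not pass without WT replicate 1 (adjusted p = 0.0607). Class II genes gave 2 calls of 8, H2-Ab1 and H2-Eb1, both lower, beside 7.09% of all tested genes. Neither was called with WT replicate 1 or 2, or else D310N replicate 1 or 3, left out, and 1 was without D310N replicate 2. The invariant chain Cd74 gave 0.12 ± 0.06 (adjusted p = 0.24).

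Promoters of some members that fell are shown because the mitotic and interferon groups are known to be driven through short, named elements. They were picked by smallest p among called members whose 250 bases held the marked letters. They do not show how common these letters are. Each sequence is the 250 bases before the annotated start, from RefSeq on GRCm38.p6, read 5′ to 3′ on the gene's strand. For the interferon group the capitals mark GAAA followed by any 2 bases and GAAA again, the core of the interferon-stimulated response element (ISRE), on either strand. Overlapping matches run together in capitals, as in Isg15.
Ifit3, chr19:34583279-34583528, plus strand: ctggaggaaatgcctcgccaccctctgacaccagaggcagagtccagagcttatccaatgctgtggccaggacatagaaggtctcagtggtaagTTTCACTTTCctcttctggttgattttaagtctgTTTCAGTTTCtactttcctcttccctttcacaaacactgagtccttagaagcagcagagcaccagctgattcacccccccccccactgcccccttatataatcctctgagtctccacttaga
Isg15, chr4:156200819-156201068, minus strand: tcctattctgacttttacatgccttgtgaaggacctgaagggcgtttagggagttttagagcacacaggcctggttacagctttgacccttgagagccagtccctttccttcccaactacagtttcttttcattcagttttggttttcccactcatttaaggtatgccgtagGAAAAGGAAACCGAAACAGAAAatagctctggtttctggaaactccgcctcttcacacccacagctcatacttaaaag
Oas3, chr5:120777660-120777909, minus strand: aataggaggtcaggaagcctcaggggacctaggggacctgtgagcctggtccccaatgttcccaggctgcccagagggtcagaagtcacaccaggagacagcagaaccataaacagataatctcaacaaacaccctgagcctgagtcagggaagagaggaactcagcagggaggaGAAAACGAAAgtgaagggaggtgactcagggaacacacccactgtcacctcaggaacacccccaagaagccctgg

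For the mitotic group the capitals mark TTTGAA, the cell cycle genes homology region (CHR), and CCAAT, the CCAAT box bound by NF-Y, on either strand. Members shown had to hold both.
Ckap2l, chr2:129297213-129297462, minus strand: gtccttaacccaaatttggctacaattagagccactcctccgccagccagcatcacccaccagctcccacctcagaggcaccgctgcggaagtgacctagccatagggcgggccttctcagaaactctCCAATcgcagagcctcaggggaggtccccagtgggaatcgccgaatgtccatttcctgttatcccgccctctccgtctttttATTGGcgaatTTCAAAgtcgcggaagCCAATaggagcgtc
Cdc20, chr4:118437344-118437593, minus strand: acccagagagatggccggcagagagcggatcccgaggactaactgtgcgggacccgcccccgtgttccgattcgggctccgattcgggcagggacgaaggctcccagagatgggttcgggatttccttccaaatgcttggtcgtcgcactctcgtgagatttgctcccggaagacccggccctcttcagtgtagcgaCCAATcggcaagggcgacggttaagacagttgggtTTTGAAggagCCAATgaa
Ccnb2, chr9:70421555-70421804, minus strand: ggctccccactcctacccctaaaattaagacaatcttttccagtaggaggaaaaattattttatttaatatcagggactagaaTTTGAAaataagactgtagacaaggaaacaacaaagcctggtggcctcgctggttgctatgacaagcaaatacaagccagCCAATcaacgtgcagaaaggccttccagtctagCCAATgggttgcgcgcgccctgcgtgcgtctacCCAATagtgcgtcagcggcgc

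In the window from 250 bases before to 50 bases after the start, 9383 of the 11656 tested genes had a promoter in the RefSeq table. On either strand, 34 of 48 mitotic genes (70.8%) held the CHR letters, beside 14.5% of all tested genes and 19.4% of the G1/S genes. These letters were in 40% of the GBP and IRG genes, 25% of the antiviral effectors and 0% of the genes that transmit interferon signals. A CCAAT box was found in 77.1% of the mitotic genes, 64.5% of the G1/S genes and 43.4% of all. Its share was 55.6% for the signalling genes, 35.7% for the antiviral effectors and 20% for the GBP and IRG genes. The E2F core, searched as TTTGGCGC, TTTCCCGC, TTTGCCGC or TTTCGCGC, was found in 14 of 31 G1/S genes (45.2%), 8.33% of the mitotic genes and 4.82% of all. The ISRE core was found in 10 of 10 GBP and IRG genes with a promoter and in 11 of 28 antiviral effectors (39.3%), beside 4.1% of all tested genes and 16.7% of the signalling genes. Over the 32851 windows of the RefSeq table these motifs were present in 17.9%, 37.4%, 2.26% and 3.44%. On the gene's own strand alone the CHR was in 56.2% of mitotic and 7.98% of all tested genes, the E2F core in 25.8% of G1/S and 2.63% of all, and the ISRE core in 50% of GBP and IRG genes, 25% of antiviral effectors and 2% of all. On that strand the CCAAT box was in 47.9% of mitotic, 35.5% of G1/S and 25.6% of all tested genes. A match is a description of letters. The lists were chosen by function, so the shares describe the lists rather than the effect of the mutation.

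**Figure D4:**
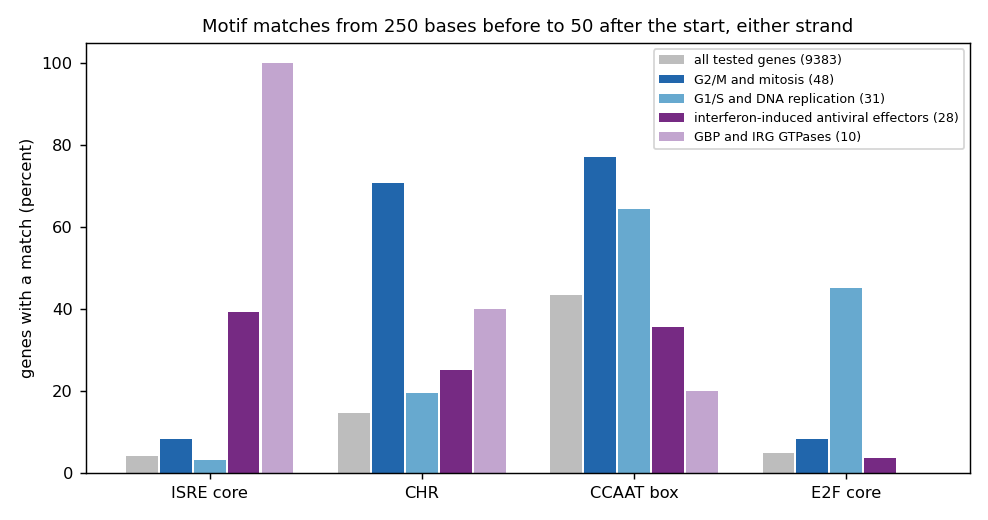
Percent of genes with a motif match (vertical axis) in the promoter window for all tested genes and 4 gene lists, on either strand, with the number of genes that had a promoter in brackets. The CHR bar is highest for G2/M genes (70.8%), the E2F bar for G1/S genes (45.2%) and the ISRE bar for GBP and IRG genes.

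Genes of glucose use rose. Of 25 tested enzymes of glycolysis and other targets of HIF-1, the transcription factor of low oxygen, 14 rose, beside 3.64% of all tested genes, and 1 fell, with a median of 0.21. Without D310N replicate 1 the count of rises was 9. Pdk1, the kinase that keeps pyruvate out of the mitochondria, read 9.92, 10.04 and 10.06 in WT and 10.92, 10.71 and 10.86 in D310N (0.82 ± 0.07, adjusted p = 5.3e-10). Ankrd37, a HIF-1 target of unclear function, gave 0.94 ± 0.17, and the angiogenic factor Vegfa and the glucose transporter Slc2a1 gave 0.61 ± 0.11 and 0.42 ± 0.09. The enzymes themselves changed less, with 0.30 ± 0.05 for Gpi1, 0.27 ± 0.05 for Pgk1 and 0.21 ± 0.04 for Ldha. Aldoc, an aldolase isoform, went the other way, at 9.29, 9.30 and 9.30 in WT and 8.65, 9.09 and 8.71 in D310N. Its difference of -0.48 ± 0.13 (adjusted p = 0.017) was lost without WT replicate 2 or D310N replicate 1 or 3, with adjusted p-values of up to 0.131. D310N replicate 2 was nearest to WT for all 14 genes that rose.

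Serine synthesis was split. Phgdh, its first enzyme, read 7.35, 7.26 and 7.19 in WT and 6.21, 6.11 and 6.12 in D310N (-1.12 ± 0.11, adjusted p = 2.5e-08), which is 0.46 times the WT level. Psat1, which catalyses the following step, overlapped between genotypes (0.14 ± 0.09, adjusted p = 0.41). Of 10 serine and one-carbon enzymes 4 fell, or 2 without D310N replicate 3, beside 7.09% of all tested genes. The mitochondrial folate enzyme Mthfd2 was among the falls (-0.33 ± 0.06). Of 18 targets of ATF4, the transcription factor of amino acid shortage, 6 fell, beside 7.09% of all tested genes. They included asparagine synthetase Asns (-0.49 ± 0.10), the amino acid transporter Slc1a4 (-0.76 ± 0.14) and Chac1, which degrades glutathione (-1.03 ± 0.21). The other tested members of both lists did not pass.

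Lipid synthesis genes gave no calls by limma at an adjusted p under 0.05, beside 10.7% of all tested genes. This holds for 23 genes of sterol synthesis and uptake, 12 of fatty acid synthesis and 9 of LXR-driven cholesterol efflux. At an unadjusted p under 0.05 the counts were 0, 1 and 0, beside 2595 of the 11656 tested genes. The sterol differences ran from -0.12 to 0.12.

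Adhesion and matrix genes rose more often than they fell. Of 27 tested matrix, protease and integrin genes 9 rose, beside 3.64% of all tested genes, with a median of 0.08. The falls, 2 in number, were near the 7.09% of all tested genes. Fibronectin (Fn1), a matrix protein that integrins bind, read 5.88, 5.91 and 6.02 in WT and 7.17, 7.01 and 7.43 in D310N (1.27 ± 0.16, adjusted p = 1.9e-06). Itga6, the laminin receptor subunit, read 10.74, 10.83 and 10.90 against 11.64, 11.73 and 11.66 (0.86 ± 0.07, adjusted p = 1.7e-10). The beta 2 integrin chain Itgb2 rose by 0.36 ± 0.06 together with its alpha partners Itgax, which encodes CD11c (1.13 ± 0.13), and Itgam, which encodes CD11b (0.24 ± 0.04). Itgb3, the beta chain of the vitronectin receptor, fell, at 7.03, 7.18 and 7.19 in WT and 6.44, 6.68 and 6.38 in D310N (-0.63 ± 0.12).

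Matrix metalloproteinases differed from one another. The elastase Mmp12 read 13.63, 13.70 and 13.82 in WT and 14.83, 14.27 and 14.83 in D310N (0.93 ± 0.18, adjusted p = 0.00058), and the collagenase Mmp8 gave 0.62 ± 0.11. The membrane-bound Mmp14 fell, at 8.62, 8.63 and 8.66 against 7.97, 8.12 and 7.86 (-0.65 ± 0.08, adjusted p = 5.6e-07). Mmp8 is also a neutrophil marker. Of 12 neutrophil markers 4 were tested and Mmp8 alone was called, their summed linear level ranged from 220.4 to 259 in WT and from 331 to 372 in D310N, and 11 lay below a linear value of 10 in all 6 libraries, so that Mmp8 made up most of this sum.

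Coagulation genes rose in 5 of 13 tested cases, beside 3.64% of all tested genes, and in 3 without WT replicate 1 or D310N replicate 1. Coagulation factor VII (F7) read 5.49, 5.73 and 5.65 in WT and 7.19, 6.41 and 7.21 in D310N (1.31 ± 0.26, adjusted p = 0.00057). Factor X (F10), which factor VII activates, read 6.14, 6.27 and 6.28 against 7.35, 6.80 and 7.28 (0.91 ± 0.16, adjusted p = 0.00019). The genes are neighbours on chromosome 8, F7 from 13026034 to 13035809 and F10 from 13037308 to 13056676. Pdk1 and Itga6, described above, are neighbours as well, on chromosome 2 from 71873224 to 71903858 and from 71745616 to 71858416, and both neighbourhoods were noticed after the values were seen. The plasminogen activator Plau gave 0.66 ± 0.16 (adjusted p = 0.0055), lost without D310N replicate 1 (adjusted p = 0.0638). The transglutaminase F13a1 was the member that fell (-0.39 ± 0.12, adjusted p = 0.038), a call lost without WT replicate 2 or 3 or D310N replicate 3, with adjusted p-values of up to 0.274. This single fall among 13 was near the 7.09% of all tested genes.

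Genes for the fusion of macrophages into multinucleate cells rose with them. Of 10 tested osteoclast and cell fusion genes 5 rose, beside 3.64% of all tested genes, and 1, Itgb3, fell, beside 7.09%. The count of rises was between 2 and 4 when any library of 0 min was left out. It was 2 without D310N replicate 1 or WT replicate 2, and 3 without D310N replicate 3 or WT replicate 3. Dcstamp, a membrane protein required for fusion, read 9.04, 9.26 and 9.13 in WT and 10.10, 9.75 and 10.06 in D310N (0.83 ± 0.10, adjusted p = 1.6e-06). Atp6v0d2, the proton pump subunit of osteoclasts, read 10.71, 10.77 and 10.77 against 11.98, 11.48 and 11.88 (1.03 ± 0.14, adjusted p = 6e-06). Mmp9 gave 0.73 ± 0.22 (adjusted p = 0.03), a call lost without any of the 3 WT libraries or D310N replicate 1 or 3, with adjusted p-values of up to 0.163.

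Surface receptors divided into rising and falling members. Among 16 tested C-type lectins, receptors for sugars on microbes and dying cells, 4 rose and 6 fell, beside 3.64% and 7.09% of all tested genes. Clec7a, the beta-glucan receptor Dectin-1, read 11.88, 11.998 and 11.96 in WT and 12.61, 12.41 and 12.63 in D310N (0.60 ± 0.09, adjusted p = 3.3e-05). Clec4n, the mannan receptor Dectin-2, moved the opposite way, from 8.23, 8.50 and 8.39 to 7.35, 7.74 and 7.21 (-0.94 ± 0.17, adjusted p = 0.00018), as did Clec4e, the glycolipid receptor Mincle (-0.40 ± 0.06), and the galactose lectin Clec10a (-0.74 ± 0.13). Clec4a2, an inhibitory member, rose by 0.43 ± 0.09.

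Of 16 chemoattractant receptors 4 rose, beside 3.64% of all tested genes, and 1 fell, near the 7.09% of all tested genes. The monocyte receptor Ccr2 gave 0.60 ± 0.12 and Ccr3, a receptor of eotaxins, 0.50 ± 0.07. Cxcr3, the receptor of Cxcl9 and Cxcl10, was the member that fell (-0.68 ± 0.21, adjusted p = 0.035), a call lost without any of 5 of the 6 libraries, all but D310N replicate 2, with adjusted p-values of up to 0.222. Among 18 chemokines 3 rose, beside 3.64% of all tested genes, and the others did not pass. Ccl6 read 12.26, 12.29 and 12.19 in WT and 13.06, 12.67 and 12.99 in D310N (0.66 ± 0.11). Ccl9 gave 0.28 ± 0.06, which did not pass after quantile normalisation (adjusted p = 0.18). Ccr2 and Fn1, described above, are also inflammatory monocyte markers. Of 9 such markers tested 2 rose and 3 fell, beside 3.64% and 7.09% of all tested genes, with a median of -0.13. The falls numbered 0 without WT replicate 2 or 3 or D310N replicate 3.

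The scavenger receptor Cd36 read 14.24, 14.35 and 14.38 in WT and 15.33, 14.83 and 15.29 in D310N (0.82 ± 0.15, adjusted p = 0.00027), or 1.77 times the WT level. The inhibitory sialic acid receptor Cd33 fell from 7.10, 7.09 and 7.27 to 5.77, 6.69 and 5.81 (-1.07 ± 0.24, adjusted p = 0.0026), with D310N replicate 2 far nearer to WT than the others. The efferocytosis receptor Axl gave -0.25 ± 0.05, and Tgm2, a transglutaminase of alternatively activated macrophages, gave -0.54 ± 0.05 (adjusted p = 3.6e-09). Of 15 tested genes of alternative activation 5 fell, or 3 without WT replicate 2 or 3 or D310N replicate 3, beside 7.09% of all tested genes. Egr2, a transcription factor of that state and of early responses, rose.

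The macrophage markers themselves were present in both genotypes. Of 26 macrophage identity genes 3 rose, 2 fell and the others did not pass, with a median of 0.004. Over all tested genes 3.64% were called higher and 7.09% lower, so the falls were near that share. Only 1 fell without D310N replicate 1 or 3 or any of the 3 WT libraries. The rises numbered 6 without WT replicate 1 or 2 of 360 min and 7 in the 6 libraries of 0 min alone. The F4/80 antigen Adgre1 read 14.68, 14.74 and 14.62 in WT and 14.54, 14.65 and 14.56 in D310N, and the lysozyme Lyz2 read 17.05, 17.11 and 17.03 against 16.96, 17.08 and 16.90. Both overlapped between genotypes. Of the Y-linked genes 4 were tested and 0 were called by limma, with 1 at an unadjusted p under 0.05 and 1 called after quantile normalisation. Endothelial markers were lower. Of 6, 4 were tested and 2 fell, beside 7.09% of all tested genes. They were Kdr, a VEGF receptor (-0.61 ± 0.11), and Vwf (-0.55 ± 0.14), the latter lost without D310N replicate 1 (adjusted p = 0.115). The summed linear level of the 6 markers ranged from 1908 to 1975 in WT and from 1134 to 1602 in D310N. Their part in the results above was not tested.

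Genes of the pathway of ABIN-2 and of inflammation were called at shares of 5.88% (pathway), 5.26% (cytokines) and 9.52% (Toll-like receptors), beside 10.7% of all tested genes. Of 17 partners of ABIN-2, Tpl2 and A20, Map2k1, which encodes the kinase MEK1 downstream of Tpl2, was the 1 called (0.14 ± 0.04, adjusted p = 0.012), a call lost without WT replicate 3 or D310N replicate 1 or 3, with adjusted p-values of up to 0.117, while 3 partners were called higher without D310N replicate 2 and, with 1 lower, when the 6 libraries of 0 min were fitted alone. Map3k8, which encodes Tpl2, gave -0.07 ± 0.05, Nfkb1, which encodes p105, -0.07 ± 0.04, Tnip1 and Tnip3, the other ABIN genes, -0.12 ± 0.06 and 0.14 ± 0.09, and the A20 gene Tnfaip3 0.13 ± 0.06, none of which passed. Tnip1 passed without WT replicate 1 of 360 min (adjusted p = 0.0187), Tnip1 and Tnip3 passed in the 6 libraries alone (adjusted p = 0.0472 and 0.0358), and Tnfaip3 passed without D310N replicate 2 (adjusted p = 0.0371). Of 19 inflammatory cytokine genes Ebi3, a subunit of IL-27 and IL-35, was the 1 called (-0.36 ± 0.09, adjusted p = 0.0056), against 2 called lower without WT replicate 1 or 2 of 360 min. Tnf read 11.96, 11.94 and 11.94 in WT and 11.98, 11.93 and 12.39 in D310N, with only D310N replicate 3 standing apart. Of 21 Toll-like receptors and adaptors 2 fell, the flagellin receptor Tlr5 (-0.93 ± 0.21, at values between 2.75 and 4.32) and Tlr2 (-0.18 ± 0.06, adjusted p = 0.043). The lowest Tlr5 values lay below the 3.32 that tested genes had to reach in some libraries. The size of the Tlr5 fall and its p-value are therefore uncertain. The Tlr2 call was lost without any of 5 of the 6 libraries, all but D310N replicate 2, with adjusted p-values of up to 0.24. Of the Toll-like list 2 rose without WT replicate 1 of 360 min and 1 without WT replicate 2 of 360 min or D310N replicate 2 of 0 min. The LPS co-receptor Cd14 gave -0.15 ± 0.07 (adjusted p = 0.16).

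Some immediate early genes, which growth factor and ERK signals switch on within minutes, were higher before any LPS. Of 24 tested 6 rose, beside 3.64% of all tested genes, and 1 fell, beside 7.09%. The median was 0.12, and the fall was lost without D310N replicate 1 or 3 or any of the 3 WT libraries. Egr2 read 8.72, 8.74 and 8.76 in WT and 9.93, 9.42 and 10.09 in D310N (1.07 ± 0.10, adjusted p = 1.1e-08). The AP-1 subunits Junb and Fosl1 gave 0.24 ± 0.04 and 0.76 ± 0.18. The ERK phosphatase gene Dusp5 gave 0.41 ± 0.10 (adjusted p = 0.0046), which did not pass without D310N replicate 1 (adjusted p = 0.0576).

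The remaining genes among the largest changes belong to no list. Ptprn, a phosphatase-like protein of secretory granules, read 5.50, 5.82 and 5.59 in WT and 7.15, 6.56 and 7.08 in D310N, and Ppp1r1a, an inhibitor of protein phosphatase 1, read 5.35, 5.65 and 5.40 against 6.95, 6.42 and 6.86. The Notch ligand Jag1 gave 1.05 ± 0.10, 2010300C02Rik gave 1.195 ± 0.17, Pianp 0.91 ± 0.15 and Camk2b, a calcium-dependent kinase subunit, 0.88 ± 0.17. Among the falls, Cbr2, a carbonyl reductase, gave -1.07 ± 0.14 and Alox5, which starts leukotriene synthesis, -1.07 ± 0.14 at 6.22, 6.22 and 6.21 in WT and 5.15, 5.30 and 4.998 in D310N. Among called genes without overlap whose higher group mean reached a linear value of 50, the largest fall was that of G530011O06Rik (-2.03 ± 0.10), followed by Mid1, a ubiquitin ligase that binds microtubules (-1.84 ± 0.12). They overlap on the X chromosome on opposite strands, Mid1 from 169685199 to 170005736 and G530011O06Rik from 169975043 to 169978917, and reads of overlapping genes cannot be told apart where strand was not used.

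Positions of some changes were close together. Ldlrad3 (-1.13 ± 0.14; chromosome 2, 101950203 to 102186385) lies between Rag1 (101638282 to 101649501), the recombinase of lymphocytes, and Slc1a2 (102658659 to 102790784), a glutamate transporter. Rag1 read 3.58, 4.11 and 3.54 in WT and 1.23, 1.11 and 1.13 in D310N (-2.58 ± 0.29, adjusted p = 2.0e-07), and Slc1a2 read 4.33, 4.69 and 4.45 against 2.39, 2.23 and 2.26 (-2.19 ± 0.18, adjusted p = 6.3e-10). Rag1 and Slc1a2 lay below the level set for naming the largest changes and were picked after their values were seen. Their D310N values also lay below the level that tested genes had to reach in some libraries, and only their WT values lay above it. The sizes of these falls and their p-values are therefore uncertain, and they cannot show whether the closeness in position has a meaning. Near Tnip2 itself, Abhd1 rose from 3.43, 3.30 and 3.49 to 5.48, 5.68 and 5.80 (2.25 ± 0.14, adjusted p = 2.8e-12), starting 3.56 Mb before Tnip2, and its neighbours Slc35f6 and Ept1 rose by 0.76 ± 0.11 and 0.45 ± 0.07. Within 10 Mb of the Tnip2 start 13 of 116 tested genes were called (11.2%), 3 higher and 10 lower, beside 10.7% of all tested genes. Tacc3, a mitotic spindle protein, Rgs12, Emilin1 and Ift172 were among those lower, at -0.51, -0.46, -0.40 and -0.32. Cenpa, the histone of the centromere, gave -0.42 ± 0.12 (adjusted p = 0.02), lost with WT replicate 2 or 3, or else D310N replicate 1 or 3, left out, with adjusted p-values of up to 0.0858.

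Smaller shifts in abundant housekeeping groups were seen too. All 28 tested cytosolic ribosomal protein genes had a difference above 0, with a median of 0.13, and 7 rose, beside 3.64% of all tested genes. Only 1 or 2 did so without D310N replicate 1 or 3 or WT replicate 2 or 3, and 2 did so after quantile normalisation. The count was 14 and 11 without WT replicates 1 and 2 of 360 min, 12 in the 6 libraries of 0 min alone and 13 with the replicate block. Rps6 gave 0.16 ± 0.04 (adjusted p = 0.0036). Among 25 lysosomal enzymes and proton pump subunits 2 rose and 7 fell, beside 3.64% and 7.09% of all tested genes. Only 1 fell without WT replicate 1 or D310N replicate 3. The protease Ctsl gave 0.36 ± 0.07, and Ctsb gave -0.19 ± 0.05 (adjusted p = 0.0059). The Ctsb call was lost without D310N replicate 3 (adjusted p = 0.0596) and in the 6 libraries of 0 min alone (adjusted p = 0.0575). Quantile normalisation gave Ctsb the same mean in both genotypes, so that setting cannot test it.

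The differences present before LPS were compared with those in the libraries that had received it, which are other libraries of the same genotypes. At 30 min 1423 genes were called (12.2%), and 953 of these were also called at 0 min in the same direction, 76.2% of the calls at 0 min and 67% of those at 30 min. The share of the calls at 0 min fell to 72.1% at 60 min, 65.4% at 120 min, 45.2% at 240 min and 41.1% at 360 min, where 514 genes were shared. At these times 12.9%, 17.7%, 17% and 16.3% of all tested genes were called. Of the 1250 genes, 1244 had the same sign at 30 min and 1081 at 360 min. Whether the difference itself had changed was tested against 0 min. By limma 0 genes were called for a change from 0 to 30 min (0%), with 108 at an unadjusted p under 0.05. From 0 to 360 min 234 were called (2.01%), 118 towards higher (1.01%) and 116 towards lower in D310N (0.995%). This count was 121, 130 and 155 without WT replicates 1, 2 and 3 of 0 min, and 116 and 107 without D310N replicates 1 and 3 of 0 min. It was 581, 509 and 372 without WT replicates 1, 2 and 3 of 360 min, and 133 and 129 without D310N replicates 1 and 3 of that time.

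At 360 min 38 of the 56 mitotic genes were lower, beside 9.52% of all tested genes, with a median of -0.48. The difference had changed for 6 of them, each towards higher in D310N, beside 1.01% of all tested genes. Ccnb1 went from -1.15 to -0.49 (change 0.66, adjusted p = 0.0027) and Kif18b from -1.26 to -0.31 (change 0.95, adjusted p = 0.0012). The antiviral effectors were lower by a median of -0.41 at 30 min and -0.42 at 120 min, with 36 and 35 of 37 called lower, beside 7.78% and 9.72% of all tested genes. At 360 min their median was -0.08 with 5 of 37 called lower, beside 9.52% of all tested genes. Ifit3 went from -0.59 to -0.14 (change 0.45, adjusted p = 0.02) and Usp18 from -0.40 to 0.02 (change 0.42, adjusted p = 0.0046). Glycolysis and HIF-1 genes had a median of 0.16 at 360 min, with 11 called higher, beside 6.8% of all tested genes. Egr2 went from 1.07 to 0.14 (change -0.93, adjusted p = 0.00033), whereas Phgdh, at -1.12, and Itgax, at 1.17, stood near their values at 0 min. The changes share the 6 libraries of 0 min with the comparison that named these genes.

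**Figure D5:**
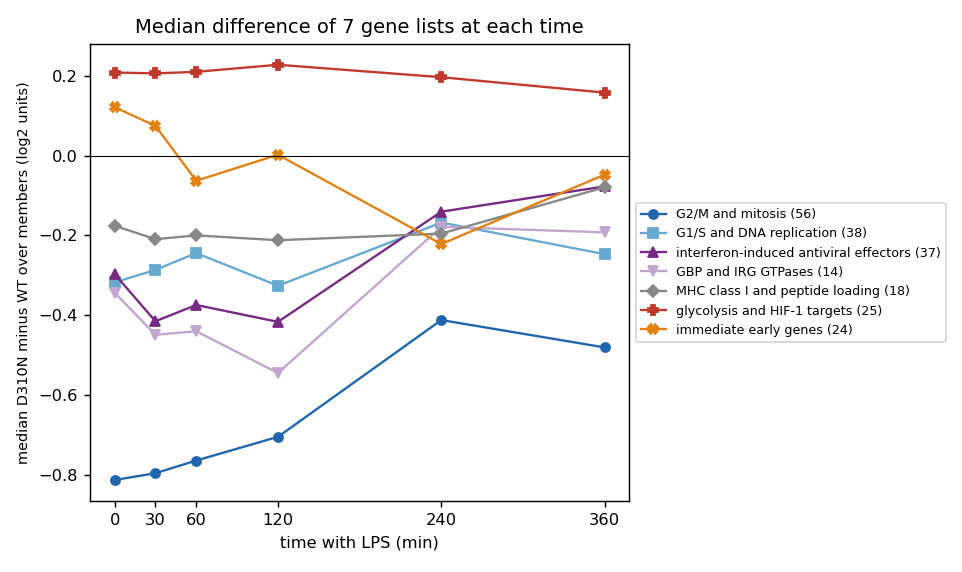
Median difference between D310N and WT over the tested members of 7 gene lists (vertical axis, log2 units) against time with LPS (horizontal axis, min), each time from its own 3 libraries per genotype. The G2/M median ran from -0.81 at 0 min to -0.48 at 360 min, the antiviral median from -0.30 to -0.08, and the glycolysis and HIF-1 median stayed between 0.16 and 0.23.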

How the data were processed

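RNA of 36 libraries was sequenced as single-end 75 bp reads. Per the submitters' processing notes the authors used STAR 2.5.2a, RSEM 1.2.31, DESeq2 1.10.1 and the build mm10. The deposited table holds normalised log2 values per gene, from -4.14 to 19.3, whose transformation is not given in the sources used here, so differences of low genes may be understated. It holds no counts, so depth is unknown. Library medians at 0 min ran from 7.13 to 7.20.

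Of 16439 genes, 23 with names turned into dates were left out. limma 3.58.1 in R 4.3.3, with intensity trend, was fitted to the log2 values over all 36 libraries with 1 mean per genotype and time (24 residual degrees of freedom). P-values were two-sided and Benjamini-Hochberg adjusted over the 11656 tested genes. A pseudocount had been foreseen for a linear table and was not needed. On simulated data for the comparison at 0 min (11656 genes) the fit recovered 30%, 72%, 96% and 100% of 50 genes changed by 0.25, 0.5, 1 and 2, with 4 false calls among 11456 unchanged genes. The simulated noise was independent between genes, equal in spread between libraries and without effects shared within a library. These rates may therefore not hold for the real libraries. Positions (GENCODE M21, GRCm38) were found for 11591 tested genes (99.4%).

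The comparison, the gene lists and the rule for naming genes were chosen with earlier results of these data known. The rule names Tnip2 with its partners, 15 rises and 15 falls by size among called genes without overlap whose higher group mean was 50 or more (linear), up to 8 called members of each list, up to 3 uncalled members, called genes within 10 Mb of Tnip2, and Y-linked genes. Of 49 lists, 47 had a tested member, and not every gene the rule names is printed. Alternatives left out libraries, blocked on replicate number, rescaled, added pseudocounts, changed the filter or the empirical Bayes step, or weighted libraries.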

Additional observations from a re-analysis of the deposited data

Results flagged for a closer look

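For 33 of the genes named above the difference between D310N and WT at 360 min of LPS differed from that at 0 min by limma's test of the change (adjusted p under 0.05). The change is the difference at 360 min minus that at 0 min in log2 units, and it shares the 6 libraries of 0 min with the comparison by which many of these genes were named.

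Mitotic and cell cycle genes that were lower at 0 min moved towards WT. The changes were 0.95 for Kif18b, 0.66 for Ccnb1, 0.67 for Kif14, 0.91 for Depdc1a, 0.65 for Cdc20, 0.62 for Kif20a and 0.86 for Mxd3. Interferon-stimulated genes moved the same way, with 0.45 for Ifit3, 0.38 for Ifit2, 0.39 for Oasl2, 0.31 for Stat2, 0.42 for Usp18, 0.38 for Ddx58, 0.31 for Ifi203, 0.39 for Tgtp2 and 0.23 for Tap1. Their differences at 360 min lay between -0.16 (Tgtp2) and 0.02 (Usp18). Mmp14, Tgm2 and Slc1a2 also moved towards WT, by 0.50, 0.29 and 1.47. For Slc1a2 the size is uncertain, because its D310N values at 0 min lay below the level that tested genes had to reach in some libraries.

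Genes higher at 0 min that moved towards or below WT included immediate early genes, with -0.93 for Egr2, -0.34 for Junb, -0.99 for Fosl1 and -0.69 for Dusp5. Dusp5 went from 0.41 to -0.28 and Fosl1 from 0.76 to -0.23. Further changes of this kind were -0.35 for Pdk1, -0.41 for Itga6, -0.59 for Ccr3, -1.13 for 2010300C02Rik and -0.80 for Pianp. Tnfaip3, Irf5 and Irf8, which were not called at 0 min, changed by -0.37, -0.32 and -0.45.

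Mid1 and G530011O06Rik, already lower at 0 min, moved further from WT, by -0.66 and -1.08.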

How the results depend on the processing

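Of 124 genes named above that were called at 0 min, 103 were called under all 30 alternatives. A further 6 (Chac1, Kit, Mxd3, Rag1, Slc1a2 and Tlr5) were called under 29, being too low for the stricter filter. None of the 146 named changed direction. Only leaving out a library of 0 min, rescaling, pseudocounts or library weights can alter a difference at 0 min. The other alternatives alter its spread or the set of genes tested, so its direction was fixed there. The 1250 calls at 0 min ran from 716 to 1807 when 1 library was left out, 1896 with the 6 libraries of 0 min alone and 3458 with library weights. The 0 calls for a change from 0 to 30 min ran from 0 to 1 when 1 library was left out and were 3 with library weights. The 234 calls for a change from 0 to 360 min ran from 107 to 581 and were 1005 with library weights. The cause was not tested.

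Replicate numbers recur in every group. Deviations from the group means correlated over genes by 0.104, 0.119 and -0.030 between same-numbered WT and D310N libraries of 0 min. Libraries 1 and 2 correlated best with their own number, and library 3 did not. These correlations cannot tell whether same-numbered libraries share a batch. With the replicate block 1423 genes were called at 0 min (510 higher, 913 lower), 0 for the change to 30 min and 268 for the change to 360 min. The block with the 6 libraries alone, chosen after seeing the data, gave 2121. Scaling moved the median of all genes by under 0.1. Depth is unknown, so no detection limit can be given.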

Other observations

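Few markers of lymphoid and mast cells reached the filter. Of 10 T cell markers 3 were tested, of 8 B cell markers 1, and of 7 NK cell markers and 7 mast cell and basophil markers 0. The summed linear level of the NK cell markers ranged from 5.05 to 6.26 in WT and from 4.55 to 5.33 in D310N. The T cell markers summed to between 2280.1 and 2377 in WT and between 2528 and 2670.0 in D310N, with Il7r the highest. Of 9 tested dendritic cell markers Itgax was the 1 called, beside 10.7% of all tested genes, and 1 other was called lower without D310N replicate 2 or without WT replicate 1 of 360 min.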
